A study of Mus musculus with 30 samples.

Results

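Elongating RNA polymerase II was mapped in a mouse neuroblastoma line at low and at atmospheric oxygen with an antibody against the form phosphorylated at serine 2 of the carboxy-terminal repeats (POLR2S2). Its 4 libraries, taken by antibody and oxygen label, are part of a series of 30 samples that also holds libraries for total polymerase (POLR2), for polymerase phosphorylated at serine 5 (POLR2S5), for H3K9ac, CTCF and RAD21, and inputs. Of these, 2 groups were compared, 4% O2 (2 libraries) and 20% O2 (2 libraries). Both are N1E115 cells described as NOS1+, fixed after 3 days at the stated oxygen level, so NOS1 status is common to both groups. What NOS1+ denotes, and whether the line is 1 clone, is not stated in the labels. Replicates 1 and 2 each hold a library of both levels and were sequenced on different flow cells, per the file headers, and are called rounds 1 and 2. Separate cultures are not mentioned for the 2 libraries of a level, so a p-value here gauges the spread between libraries, which could be technical. With 2 libraries against 2, the smallest p an exact permutation test can give is 0.333.

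The carboxy-terminal domain of the largest polymerase subunit, encoded by Polr2a, is a string of heptad repeats whose serines are phosphorylated in turn as a gene is read. Serine 5 is phosphorylated near the start by the CDK7 kinase of TFIIH. Serine 2 is phosphorylated by CDK9, CDK12 and CDK13 once the polymerase elongates, builds up along the gene, and helps to recruit the machinery that cleaves and polyadenylates the transcript past its end. In low oxygen, prolyl hydroxylases stop marking the HIF alpha subunits for degradation, and HIF with its partner ARNT binds short ACGTG motifs and activates genes of glucose uptake, glycolysis and collagen modification.

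The values are the authors' lists of SICER islands, stretches of the mm10 genome built from windows of 200 bp in which reads exceeded the input, each with its number of reads. In rounds 1 and 2 islands held 10.4 M and 16.6 M reads at 4% O2, against 4.87 M and 9.70 M at 20% O2 (13.5 ± 4.36 M against 7.29 ± 3.41 M reads, SD, n = 2 each, exact permutation p = 0.333). They numbered 18938 and 16174 at 4% O2, against 17765 and 17480 at 20% O2 (exact permutation p = 1), and covered 237 and 267 Mb at 4% O2, against 152 and 257 Mb at 20% O2 (exact permutation p = 0.667). The 20% O2 library of round 1 stood apart, with the fewest reads and the least sequence covered. Values of single libraries are given by round, while some list medians and region ratios below are fitted over both rounds together. Island reads are not a library's depth, for which the sources used here give no value, so a difference in total serine 2 polymerase and a difference in sequencing depth cannot be told apart. Fewer cells with polymerase on a gene and less polymerase per cell also cannot be told apart in bulk chromatin.

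The libraries carried the marks of a neuroblast line. Of 13 neuroblast markers, 11 and 11 had at least 50% of the gene under islands at 4% O2, against 8 and 10 at 20% O2. In each of the 4 libraries 2 of the 13 had no island. Phox2a and Hand2, transcription factors of sympathetic neuroblasts, Mycn, Insm1, Chgb and Th, the rate-limiting enzyme of catecholamine synthesis, were covered at 100% in each of the 4 libraries. Nos1, neuronal nitric oxide synthase, was covered at 69.6% and 90.7% at 4% O2, against 44.0% and 96.1% at 20% O2. Of 8 endothelial markers none reached 50% in any library, and the leukocyte antigen Ptprc, the fibroblast genes Col1a2 and Dcn and the astrocyte gene Aqp4 were at 0 in all 4. Other markers of those lists were not at 0. The fibroblast marker Fbln2 and the glial marker Cnp were covered at 100% in all 4. Of 7 astrocyte markers 1, S100b, reached 50%, with 100% and 52.4% at 4% O2, against 0 and 87.1% at 20% O2. Of 9 macrophage markers 1, Aif1, did, with 0 and 0 at 4% O2, against 0 and 66.99% at 20% O2, and the summed reads per kb of that list were 3.67 and 3.45 at 4% O2, against 3.86 and 61.3 at 20% O2. Of 9 fibroblast markers 1 and 2 reached 50% at 4% O2, against 1 and 2 at 20% O2, and of 9 Schwann cell and oligodendrocyte markers 1 and 1 at 4% O2, against 1 and 2 at 20% O2.

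In both rounds serine 2 islands lay further towards the starts of genes at 4% O2 than at 20% O2. Over 5428 protein-coding genes of 10 kb or more with a known strand and a serine 2 island in each of the 4 libraries, each gene body was cut into 3 equal parts, and the share of the first part under islands averaged 64.0% and 72.6% at 4% O2, against 32.1% and 59.5% at 20% O2. The last part averaged 69.1% and 69.6% at 4% O2, against 58.4% and 73.2% at 20% O2. The first part minus the last part, called the start-to-end balance, was therefore -5.13 and 2.96 percentage points at 4% O2, against -26.2 and -13.7 at 20% O2, and the groups did not overlap (-1.09 ± 5.72 against -19.99 ± 8.83, SD, n = 2 each, exact permutation p = 0.333, the smallest possible). This measure was chosen after seeing the data. The balance was closer to the start at 4% O2 in both rounds in 2049 genes, 37.7% of those measured, and closer to the end in both rounds in 353, or 6.5%.

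The gap was plain just past the start site. In the first of 20 bins along the gene body, 76.3% and 84.6% of genes were under an island at 4% O2, against 35.2% and 74.4% at 20% O2. In the first kb past the annotated end, the shares were 86.3% and 77.1% at 4% O2, against 80.3% and 86.5% at 20% O2. At the 10th bin, in mid-gene, the shares were 56.5% and 64.1% at 4% O2, against 37.8% and 58.8% at 20% O2. The same measure taken on the other polymerase forms differed in the same direction. For POLR2S5 it was 8.92 and 16.1 percentage points at 4% O2, against -6.69 and 4.25 at 20% O2, and for total polymerase 23.2 and 26.0 at 4% O2, against 8.37 and 18.0 at 20% O2 (exact permutation p = 0.333 for each). Whether the shift differed between the forms was not tested.

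**Figure D1:**
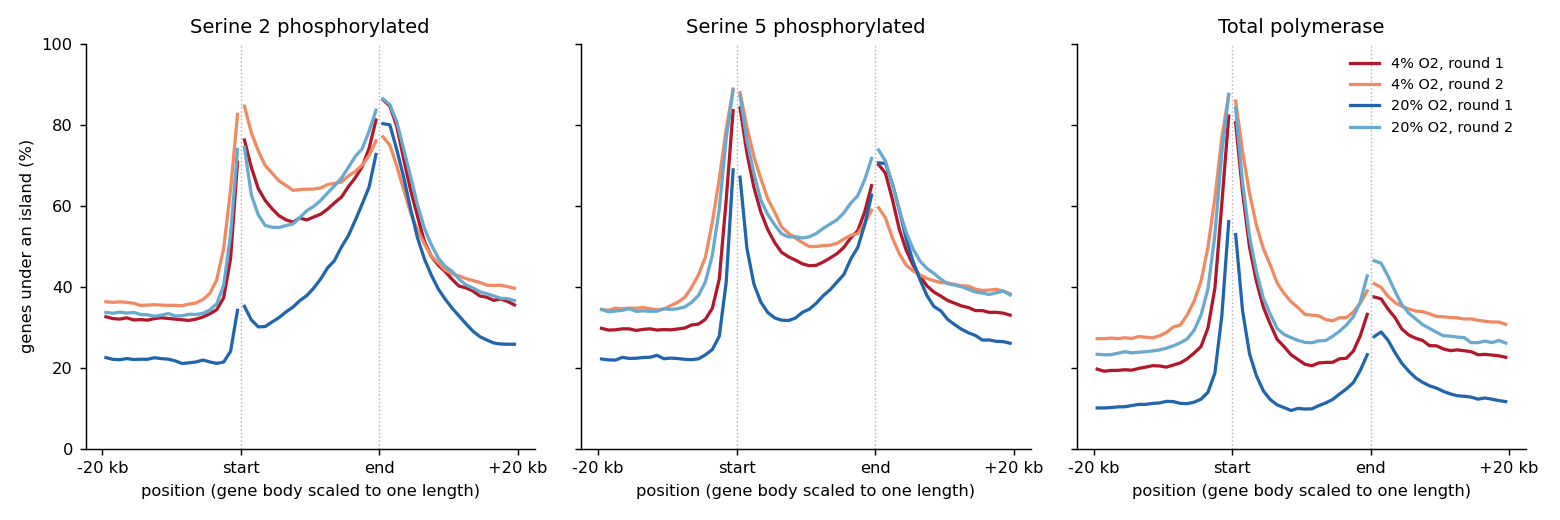
Share of genes under an island (vertical axis, percent) along 5428 genes of 10 kb or more, from 20 kb before the start to 20 kb past the end with the gene body scaled to one length, for each library of 3 polymerase forms. In the serine 2 panel the lines of the 4% O2 libraries lie above the 20% O2 library of the same round in the first part of the gene, at 76.3% against 35.2% in round 1 and 84.6% against 74.4% in round 2 just past the start.

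Reads per kb of island moved with this result, at 44.1 and 62.2 for 4% O2 and 32.1 and 37.8 for 20% O2, and their part in it was not tested.

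Past the ends of genes, serine 2 islands were more often shorter at 4% O2. Downstream reach, the distance from the annotated gene end to the end of the island that covers it, could be measured for 938 genes whose last 1 kb was under an island in all 4 libraries and that had no other protein-coding gene within 20 kb. Its median was 4.98 and 4.42 kb at 4% O2, against 4.85 and 5.85 kb at 20% O2 (4.70 ± 0.398 against 5.35 ± 0.71 kb, SD, n = 2 each, exact permutation p = 0.667). The medians overlapped between levels, with round 1 nearly equal and round 2 shorter at 4% O2. Gene by gene, reach was shorter at 4% O2 in both rounds for 350 genes, 37.3% of those measured, and longer in both for 109, or 11.6%. For POLR2S5 the counts were 252 shorter and 108 longer among 737 genes, and for total polymerase 56 shorter and 72 longer among 249.

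Hand2, one of the core transcription factors of this cell type, had islands that ran 41.1 and 31.5 kb past the gene end at 4% O2, against 46.7 and 46.5 kb at 20% O2. Reach was shorter by most at Tnpo1, the nuclear import receptor transportin 1, with 9.22 and 14.6 kb at 4% O2, against 47.2 and 17.6 kb at 20% O2, and at Dnajb12, a chaperone of the endoplasmic reticulum membrane, with 4.90 and 4.50 kb at 4% O2, against 13.5 and 26.1 kb at 20% O2. Gorasp2, a Golgi stacking protein, reached 7.28 and 4.68 kb at 4% O2, against 25.1 and 8.68 kb at 20% O2. At Bclaf3 the islands stopped inside the gene at 4% O2, at -0.281 and -0.681 kb, and ran 12.3 and 7.72 kb past it at 20% O2. Papola, the poly(A) polymerase, was also shorter, with 12.1 and 7.05 kb at 4% O2, against 16.9 and 18.7 kb at 20% O2. Hand2 and Papola were picked after their values were seen.

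Reach was longer by most at Kif3c, a kinesin motor subunit of neurons, with 39.9 and 39.7 kb at 4% O2, against 16.1 and 29.5 kb at 20% O2. Vbp1, a prefoldin subunit, reached 12.3 and 12.9 kb at 4% O2, against 2.85 and 0.054 kb at 20% O2. Ltbp4, which binds latent TGF-beta, reached 13.5 and 10.9 kb at 4% O2, against 1.54 and 1.74 kb at 20% O2, and Pecr, a peroxisomal enoyl-CoA reductase, 8.97 and 11.4 kb at 4% O2, against 0.371 and 5.17 kb at 20% O2. Hand2, Tnpo1, Dnajb12, Gorasp2 and Kif3c each had a reach above 20 kb, past the distance screened for other genes. Such an island may also cover a neighbouring gene. All genes named for reach are single genes with 2 libraries a level, and none was tested alone.

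**Figure D2:**
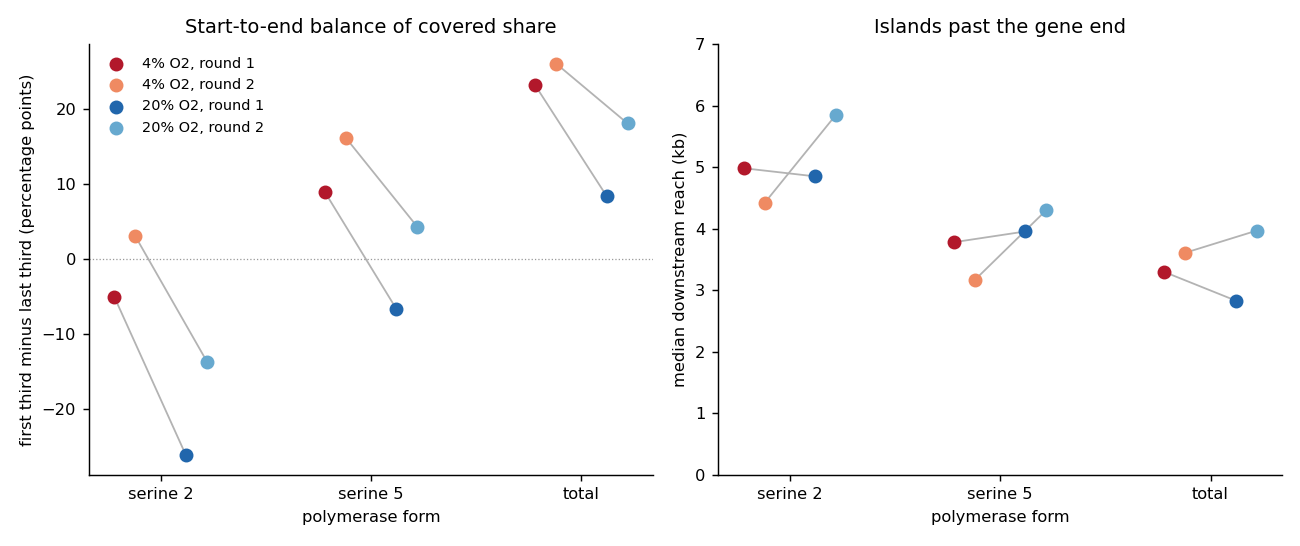
Start-to-end balance of the covered share of genes (left, first minus last of 3 equal parts of the gene body, percentage points) and median downstream reach of islands past the gene end (right, kb) for the 3 polymerase forms, with 1 point per library and a line joining the libraries of a round. For serine 2 polymerase the balance was -5.13 and 2.96 at 4% O2 against -26.2 and -13.7 at 20% O2, while the reach of 4.98 and 4.42 kb at 4% O2 overlapped the 4.85 and 5.85 kb at 20% O2.

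In each round more genes were covered at 4% O2, though the levels overlapped. At least 50% of the body lay under islands in 7083 and 7764 of 21883 protein-coding genes at 4% O2 and in 4487 and 7129 at 20% O2 (7424 ± 482 against 5808 ± 1868, SD, n = 2 each, exact permutation p = 0.667). Genes covered in both libraries of one level, and at no more than 10% in both of the other, numbered 63 for 4% O2 (0.288% of genes) and 8 for 20% O2 (0.0366%). By the same rule POLR2S5 gave 3 genes for 4% O2 and 10 for 20% O2, and total polymerase 16 for 4% O2 and 7 for 20% O2. Taken round by round, the serine 2 counts were 911 for 4% O2 and 61 for 20% O2 in round 1, and 285 for 4% O2 and 123 for 20% O2 in round 2. The start is known for 45 of the 63 genes, and 39 of these, 86.7%, had an H3K9ac peak within 1 kb of it in all 4 H3K9ac libraries. For the genes of 20% O2 it was 1 of 7, or 14.3%. The share was 49.98% among all 17491 genes with a known strand. That set was not chosen for serine 2 islands, so it is not a like set. The median length of the 63 genes was 6.33 kb, against 2.36 kb for the 8 genes of 20% O2.

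Among the 63 the highest island reads per kb were at Gata2, a transcription factor of sympathetic and blood progenitors, with 860 and 1204 reads at 4% O2, against 0 and 0 at 20% O2. POLR2S5 islands covered the whole of Gata2 in all 4 libraries of that form. Dusp1, a phosphatase that inactivates MAP kinases, had 235 and 176 reads at 4% O2, against 0 and 0 at 20% O2, again with POLR2S5 over the whole gene at both levels. Rasl11a, a small GTPase of the Ras family, had 81 and 288 reads at 4% O2, against 0 and 0 at 20% O2. Slc2a1, the glucose transporter GLUT1 and a classic HIF target, had 997 and 2822 reads at 4% O2, against 0 and 65 at 20% O2. It was covered at 100% in both 4% O2 libraries and at 0 and 8.85% at 20% O2, and its POLR2S5 coverage was 100% and 100% at 4% O2, against 7.89% and 21.9% at 20% O2. Cbx5, the heterochromatin protein HP1 alpha, had 3102 and 3205 reads at 4% O2, against 212 and 150 at 20% O2.

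The 63 also held Bhlhe41, a transcriptional repressor induced by HIF, with 262 and 325 reads at 4% O2, against 0 and 6 at 20% O2. Also among them were 3 neighbours on chromosome 15, Cthrc1, Slc25a32 and Dcaf13. They were covered at 96.3% or more in both 4% O2 libraries and at 0 in both 20% O2 libraries, while POLR2S5 covered Dcaf13 at 0 and 100% at 4% O2, against 0 and 100% at 20% O2. Bhlhe41 and these neighbours were picked after their values were seen. The 5 genes with most reads per kb at 20% O2 were small, with 42 reads or fewer at Tmem239, Cldn20 and the olfactory receptor Olfr692 in either 20% O2 library and 0 at 4% O2. Slc25a47, a mitochondrial carrier, had 17 and 0 reads at 4% O2, against 130 and 253 at 20% O2. Lrrc4, a synaptic adhesion protein, had 0 and 0 reads at 4% O2, against 84 and 107 at 20% O2. It lies inside the annotated span of Snd1, whose first part lies in a region that passed the test of reads, and chromatin reads have no strand to tell the 2 genes apart.

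Reads were then compared over 5936 merged regions that held an island in all 4 libraries. They had a median length of 30.2 kb, and 5603 held a protein-coding gene, 2831 of them 1 gene and 2772 more than 1. Reads scaled with TMM were tested with edgeR's quasi-likelihood test with the round as a block and Benjamini-Hochberg adjustment over all 5936 regions. At an adjusted p of at most 0.05, 5 regions were higher at 4% O2 (0.0842%) and 6 were lower (0.101%). At an unadjusted p under 0.05 there were 482 higher (8.12%) and 435 lower (7.33%). Without the block edgeR called 0 regions in either direction, with 193 higher (3.25%) and 156 lower (2.63%) at an unadjusted p under 0.05, and DESeq2 with the block called 155 higher and 100 lower. On simulated counts, edgeR with the block recovered 3.5% of planted 2-fold changes and 75.5% of 4-fold changes. Without the block it recovered 0% of either, so its lack of calls cannot show that regions did not differ. Log2 ratios below are fitted ratios of 4% over 20% O2 ± SE.

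Pde10a, a phosphodiesterase that degrades cAMP and cGMP in neurons, rose most among the regions that passed, over chr17:8521801-8624400, which holds the first part of the gene. It had 2389 and 3721 scaled reads at 4% O2, against 196 and 256 at 20% O2, a log2 ratio of 3.74 ± 0.31 (edgeR, adjusted p = 0.0106). Islands covered 67.8 and 103 kb of it at 4% O2, against 5.2 and 7.6 kb at 20% O2. Per kb of island the log2 ratio was 0.01. POLR2S5 in the same region had log2 ratios of 2.15 and 1.51 in rounds 1 and 2, and total polymerase -0.05 and 1.14. Round 1 ratios of total polymerase, here and below, rest on a sparse 20% O2 library, with 2.06 M island reads against 5.93 M at 4% O2.

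P4ha1 encodes the catalytic subunit of collagen prolyl 4-hydroxylase, an enzyme that itself uses oxygen, and is a known HIF target. Its region, chr10:59319001-59382000, held 5019 and 7056 scaled reads at 4% O2, against 1050 and 2568 at 20% O2 (log2 ratio 1.85 ± 0.26, edgeR adjusted p = 0.0488). P4ha1 was denser at 4% O2, with a log2 ratio of 1.19 per kb of island. Islands covered 59.8 and 63 kb of the region at 4% O2, against 24.6 and 60.4 kb at 20% O2, so length differed mainly in round 1. The gene was covered at 100% in both 4% O2 libraries and at 38.5% and 100% at 20% O2. POLR2S5 showed log2 ratios of 1.73 and 1.31 there, and total polymerase 6.41 and 1.16.

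The other 3 regions that rose were long ones, and per kb of island their log2 ratios were below 0, at -0.23 for 1700025G04Rik, -0.20 for Ralgps1 and -0.23 for Cdh22, where the median of all regions was -0.34. 1700025G04Rik had 2837 and 3653 scaled reads at 4% O2, against 557 and 319 at 20% O2 (log2 ratio 2.93 ± 0.36). The region of Ralgps1, an exchange factor for Ral GTPases, which also holds Angptl2, had 4957 and 5785 at 4% O2, against 1401 and 1544 at 20% O2 (log2 ratio 1.86 ± 0.22). Cdh22, a cadherin, had 3566 and 3564 at 4% O2, against 986 and 989 at 20% O2 (log2 ratio 1.85 ± 0.24). In all 3 the islands were longer at 4% O2, from 110 and 134 kb at 4% O2 against 14.6 and 12.6 kb at 20% O2 for 1700025G04Rik to 122 and 129 kb at 4% O2 against 24.4 and 35.8 kb at 20% O2 for Cdh22. The other polymerase forms went opposite ways between rounds at 1700025G04Rik, with log2 ratios of -0.44 and 0.89 for POLR2S5 and -0.42 and 0.06 for total polymerase. At Ralgps1 they were 0.72 and 1.31 for POLR2S5 and 3.50 and -0.07 for total polymerase, and at Cdh22 1.20 and 1.30 for POLR2S5 and 5.11 and 1.44 for total polymerase.

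Among the 6 regions that fell, Eif4g3, a scaffold protein of translation initiation, had 132 and 28.9 scaled reads at 4% O2, against 2161 and 1664 at 20% O2 over chr4:138117401-138186600 (log2 ratio -4.91 ± 0.57, edgeR adjusted p = 0.0257). Bcat1, the cytosolic branched-chain aminotransferase, had 185 and 69.6 at 4% O2, against 2775 and 1060 at 20% O2 (log2 ratio -3.92 ± 0.40). POLR2S5 was also lower in both, with log2 ratios of -4.28 and -3.55 at Eif4g3 and -7.79 and -2.83 at Bcat1. Total polymerase was lower in round 1, with -3.68 at Eif4g3 and -4.37 at Bcat1. In round 2 neither library held total polymerase reads in these regions, so no ratio can be read there.

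Agap1, a GTPase-activating protein for Arf in membrane traffic, spans 440.5 kb of chromosome 1 and accounted for 2 of the 6. One region held 209 and 347 scaled reads at 4% O2, against 2639 and 3131 at 20% O2 (log2 ratio -3.41 ± 0.32), and a neighbouring one 1076 and 317 at 4% O2, against 6449 and 5949 at 20% O2 (log2 ratio -3.40 ± 0.40). Total polymerase had log2 ratios of -1.75 and -0.45 in the one and -4.86 and -3.38 in the other. The next region of Agap1 had a log2 ratio of -3.93 ± 0.58 with an edgeR adjusted p of 0.0604. Over the whole gene 26.1% and 15.3% lay under serine 2 islands at 4% O2, against 72.6% and 99.4% at 20% O2, and for POLR2S5 10.96% and 3.9% at 4% O2, against 58.8% and 98.2% at 20% O2.

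Snd1, a Tudor-domain protein of RNA metabolism, had 1183 and 1056 scaled reads at 4% O2, against 3826 and 5408 at 20% O2 (log2 ratio -2.03 ± 0.26). Fam78b had 1102 and 1567 at 4% O2, against 5790 and 4838 at 20% O2 (log2 ratio -2.01 ± 0.26). The 6 regions had islands at both levels, over 1.4 to 57.8 kb at 4% O2, against 38 to 153 kb at 20% O2. At Snd1 total polymerase had log2 ratios of 1.96 and -0.43, so the rounds went opposite ways. At Fam78b it had 4.62 in round 1, and in round 2 neither library held total polymerase reads, so no ratio can be read there. POLR2S5 had -0.69 and -1.73 at Snd1 and -6.83 and -0.76 at Fam78b.

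**Figure D3:**
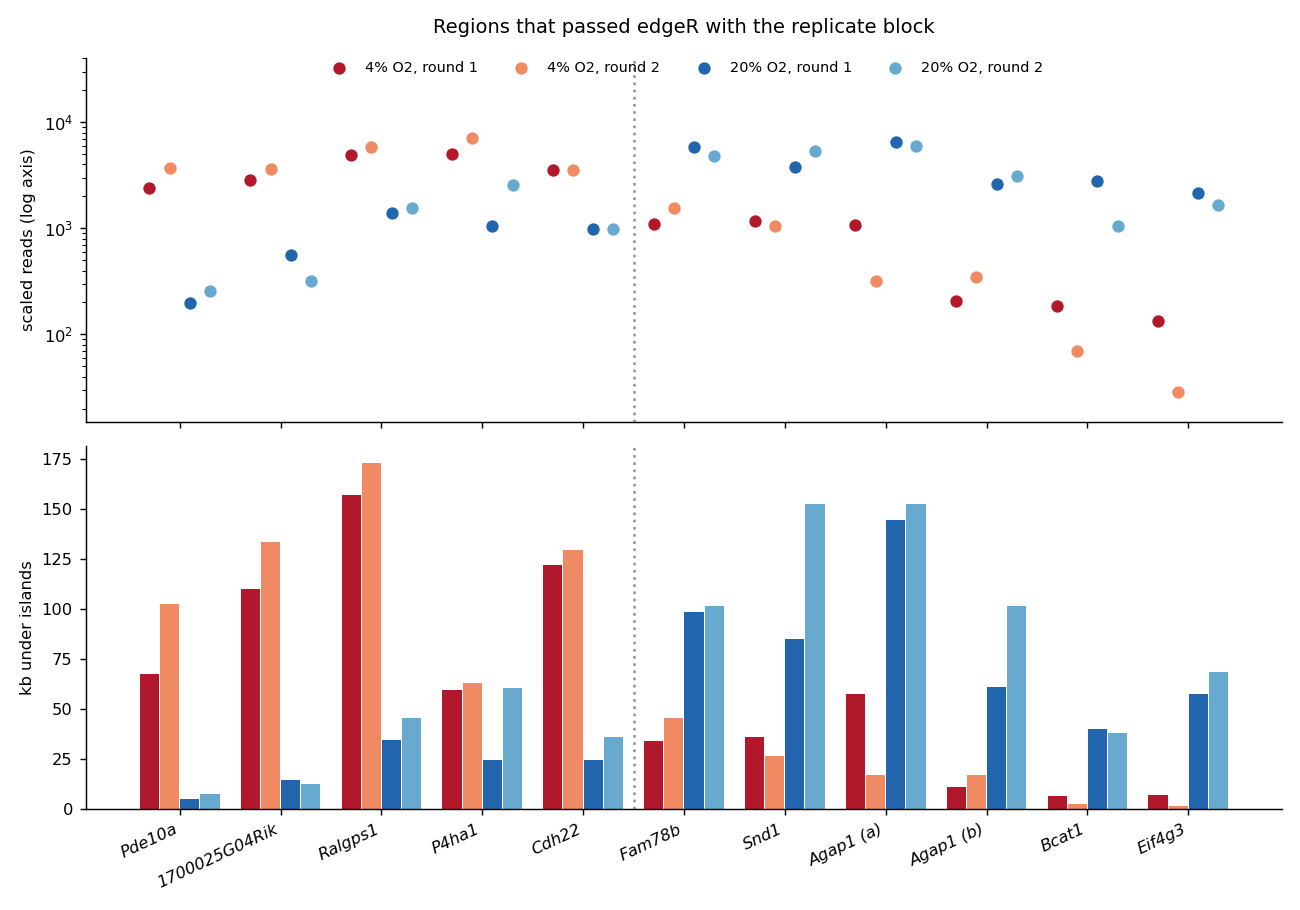
Scaled reads (top, log axis) and kb under islands (bottom, bars from 0) in each of the 4 serine 2 libraries for the 11 regions that passed edgeR with the replicate block. The 5 regions left of the dotted line lie higher at 4% O2, such as Pde10a with 2389 and 3721 reads against 196 and 256 at 20% O2, and the 6 to its right lie lower.

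Several regions with larger ratios did not pass. Ak4, a mitochondrial adenylate kinase and HIF target, had 636 and 1356 scaled reads at 4% O2, against 62.1 and 40.8 at 20% O2 (log2 ratio 4.21 ± 0.64, edgeR adjusted p = 0.0620). Dtnbp1, the dysbindin subunit of a lysosome biogenesis complex, had a log2 ratio of 3.27, Gng2, a G-protein gamma subunit, 3.15, Fnip1, a partner of folliculin, 3.10, and Plat, tissue plasminogen activator, 2.96. Fnip1 rested on round 1, with 4217 and 5114 scaled reads at 4% O2, against 60.2 and 3368 at 20% O2. Per kb of island the ratios of Ak4, Dtnbp1, Gng2 and Plat were below 0, from -0.69 for Gng2 to -0.060 for Plat. On the low side Camk2d, a calcium and calmodulin dependent kinase, had a log2 ratio of -3.45 and 28.1 and 34.8 scaled reads at 4% O2 against 205 and 557 at 20% O2.

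**Figure D4:**
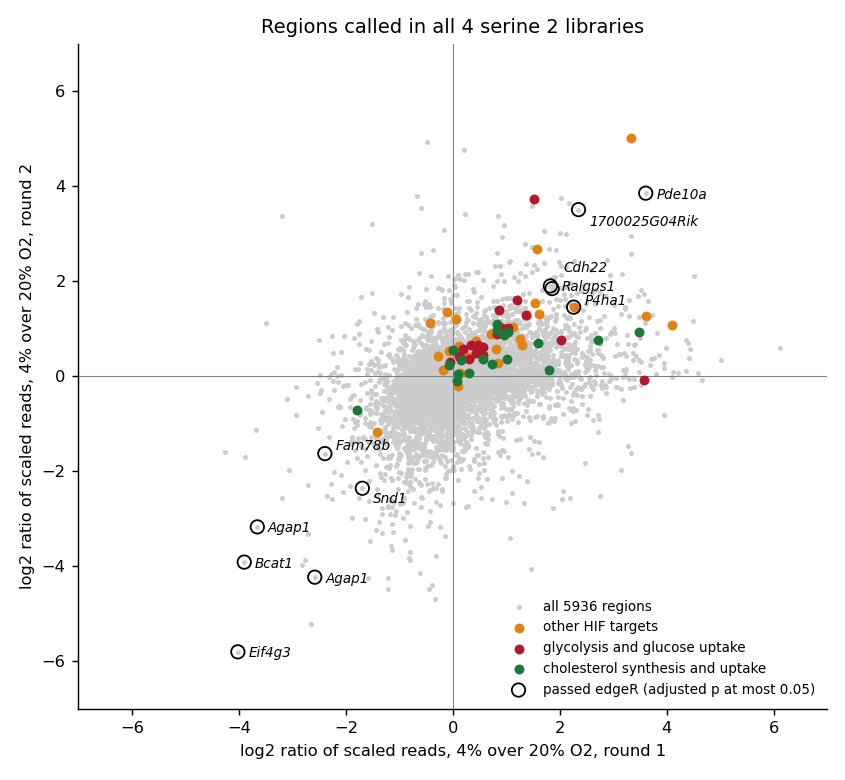
Log2 ratio of scaled serine 2 reads, 4% over 20% O2, in round 1 (horizontal axis) and round 2 (vertical axis) for 5936 regions in grey, with the members of 3 gene lists in colour and the 11 regions that passed edgeR circled. Glycolysis regions lie in the upper right, 17 of 19 above 0 in both rounds, against 32.4% of all regions.

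Genes of glucose uptake and glycolysis stood on the high side at 4% O2. Of 24 genes, 19 lay in tested regions, with a median log2 ratio of 0.59, against 0.02 for all regions tested. It was 0.57 in round 1 and 0.65 in round 2. Reads were higher at 4% O2 in both rounds in 17 of the 19 regions and lower in both in 0, against 32.4% higher and 32.1% lower in both rounds among all regions tested. None passed the test over all regions. At an unadjusted edgeR p under 0.05, 10 were higher and 0 lower, against 8.12% higher and 7.33% lower among all regions tested. Only 6 of the 19 regions hold the listed gene alone, and 5 of those 6 were higher in both rounds. The rest share their reads with neighbours.

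Hk2, the inducible hexokinase that traps glucose in the cell, had 1014 and 1826 scaled reads at 4% O2, against 356 and 136 at 20% O2 (log2 ratio 2.62 ± 0.61). The lactate transporter gene Slc16a1 had 3625 and 1971 at 4% O2, against 303 and 2089 at 20% O2 (log2 ratio 1.71 ± 0.80), so its ratio came from round 1. Ldha, lactate dehydrogenase A, had 2702 and 2284 at 4% O2, against 1330 and 1133 at 20% O2 (log2 ratio 1.017 ± 0.26). Pgk1, phosphoglycerate kinase, had 2276 and 3390 at 4% O2, against 880 and 1393 at 20% O2 (log2 ratio 1.33 ± 0.25), in a region shared with Taf9b. Pfkl and Pfkp, subunits of phosphofructokinase, had log2 ratios of 1.40 and 1.39, and Pkm, pyruvate kinase, 0.97. The lowest ratios were 0.12 for the region of Tpi1 and 0.27 for that of Gapdh. Slc2a1 was outside the tested regions because it had no island at 20% O2 in round 1. Ldha, Pgk1, Pfkl, Pfkp and Pkm were picked after their values were seen.

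Other HIF targets gave a median log2 ratio of 0.64 over 27 regions, 0.45 in round 1 and 0.74 in round 2. They were higher in both rounds in 20 and lower in both in 1, and P4ha1 passed the test over all regions. Of the 27 regions, 13 hold no more than 1 gene, 9 of them higher and 1 lower in both rounds. The rest share their reads with neighbours. After Ak4, the highest was Anxa2, a phospholipid-binding protein, with 1433 and 2253 scaled reads at 4% O2, against 82.8 and 1065 at 20% O2 (log2 ratio 2.52 ± 0.70). P4ha2, the second prolyl 4-hydroxylase subunit, had 2401 and 4257 at 4% O2, against 196 and 1763 at 20% O2 (log2 ratio 2.40 ± 0.52). Plod2, a lysyl hydroxylase of collagen, had 243 and 1002 at 4% O2, against 80.9 and 155 at 20% O2 (log2 ratio 2.15 ± 0.56). Bnip3, a receptor for mitophagy, had 3706.5 and 4729 at 4% O2, against 1215 and 1893 at 20% O2 in a region shared with Ppp2r2d and Mapk1ip1 (log2 ratio 1.46 ± 0.23). The gene itself was covered at 100% in both 4% O2 libraries and at 0 and 39.1% at 20% O2.

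Not every target was on the high side. Vegfa, the angiogenic growth factor, had 4350 and 2496 scaled reads at 4% O2, against 4060 and 2893 at 20% O2 (log2 ratio -0.06 ± 0.22), so the groups overlapped. Stc2, stanniocalcin 2, had 467 and 343 at 4% O2, against 1247 and 770 at 20% O2 (log2 ratio -1.29 ± 0.43). Car9, Lox and Rora had no island in any of the 4 libraries. P4ha2, Plod2 and Bnip3 were picked after their values were seen.

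On the scale of reads per kb of island the median of all regions tested was -0.34, that of the glycolysis list 0.27 and that of the other HIF targets -0.0050. Relative to all regions, both lists therefore stayed on the high side, while the second list was not above 0 itself. For POLR2S5 in the same regions the medians, as mean log2 ratios over the rounds, were 0.47 for glycolysis and 0.39 for the other targets, against -0.04 for all regions tested. For total polymerase they were 0.34 for glycolysis and 0.14 for the other targets, against -0.16 for all regions tested.

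The promoter windows of 5 genes are shown with the core of the HIF motif, ACGTG or its complement CACGT, in capitals. They come from RefSeq (GRCm38.p6, the same build as mm10) and run from 250 bases before the start to 50 after it, 5′ to 3′ on the gene's strand. P4ha1 is shown as the target that passed, Hk2, Pgk1 and Slc2a1 as glucose genes with high ratios or one-sided coverage, and Agap1 as a gene that fell.
P4ha1 (chr10:59323046-59323345, plus strand): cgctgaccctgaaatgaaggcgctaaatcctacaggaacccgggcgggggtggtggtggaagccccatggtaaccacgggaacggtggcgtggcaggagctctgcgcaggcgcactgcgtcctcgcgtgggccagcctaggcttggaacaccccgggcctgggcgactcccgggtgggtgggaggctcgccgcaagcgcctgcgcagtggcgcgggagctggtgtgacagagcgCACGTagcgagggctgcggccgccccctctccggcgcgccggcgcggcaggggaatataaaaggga
Hk2 (chr6:82774405-82774704, minus strand): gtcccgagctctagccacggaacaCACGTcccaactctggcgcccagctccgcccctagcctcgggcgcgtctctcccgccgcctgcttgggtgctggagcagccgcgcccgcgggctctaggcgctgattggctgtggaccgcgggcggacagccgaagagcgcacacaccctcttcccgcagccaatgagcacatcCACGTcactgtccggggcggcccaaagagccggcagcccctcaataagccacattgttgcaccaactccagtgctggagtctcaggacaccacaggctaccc
Pgk1 (chrX:106186850-106187149, plus strand): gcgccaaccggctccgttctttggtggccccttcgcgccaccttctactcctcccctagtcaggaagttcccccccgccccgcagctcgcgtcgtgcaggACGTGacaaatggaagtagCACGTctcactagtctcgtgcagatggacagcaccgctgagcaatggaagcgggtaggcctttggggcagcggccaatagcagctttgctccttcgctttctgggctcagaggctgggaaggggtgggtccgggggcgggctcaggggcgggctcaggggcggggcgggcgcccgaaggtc
Slc2a1 (chr4:119108495-119108794, plus strand): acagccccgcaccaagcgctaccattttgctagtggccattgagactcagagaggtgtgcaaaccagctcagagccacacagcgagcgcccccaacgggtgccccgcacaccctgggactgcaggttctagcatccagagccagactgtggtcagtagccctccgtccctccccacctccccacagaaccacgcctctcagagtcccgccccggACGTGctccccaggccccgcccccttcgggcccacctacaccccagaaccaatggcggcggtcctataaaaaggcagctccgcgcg
Agap1 (chr1:89454561-89454860, plus strand): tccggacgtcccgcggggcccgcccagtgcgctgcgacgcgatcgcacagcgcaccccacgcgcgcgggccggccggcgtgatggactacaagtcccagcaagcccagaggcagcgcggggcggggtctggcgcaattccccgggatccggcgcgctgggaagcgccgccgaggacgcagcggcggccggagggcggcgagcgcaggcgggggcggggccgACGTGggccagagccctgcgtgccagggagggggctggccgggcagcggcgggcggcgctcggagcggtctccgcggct

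Searched on both strands, the motif was in 20.9% of 21262 windows of protein-coding genes, and 23.2% of 17491 genes had it in at least 1 window. It was in a window of 14 of the 23 glycolysis genes and 20 of the 28 other HIF targets that had one, against 4 of 17 cholesterol genes and 18 of 55 ribosomal protein genes. Among the regions that passed, it was present for 2 of 5 lead genes that rose and all 4 genes that fell and had a window, so these letters were not confined to genes on the high side. The related core GCGTG, also searched on both strands, was in 41.4% of all genes and did not separate the lists in this way, with 15 of 23 glycolysis genes, 20 of 28 other HIF targets, 11 of 17 cholesterol genes and 31 of 55 ribosomal protein genes. A match is a description of the sequence and not a binding site.

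Cholesterol synthesis and uptake genes also stood on the high side. Their median log2 ratio was 0.59 over 18 regions, 0.78 in round 1 and 0.37 in round 2, with 15 higher in both rounds and 1 lower in both. Only 4 of the 18 regions hold no more than 1 gene, and all 4 were higher in both rounds. The rest share their reads with neighbours. None passed the test over all regions. At an unadjusted edgeR p under 0.05, 6 were higher and 1 lower, against 8.12% higher and 7.33% lower among all regions tested. Dhcr7, the last enzyme of cholesterol synthesis, had 642 and 1127 scaled reads at 4% O2, against 56.4 and 591 at 20% O2 (log2 ratio 2.16 ± 0.69). Stard4, a cholesterol transfer protein, had 759 and 1279 at 4% O2, against 115 and 753 at 20% O2 (log2 ratio 1.72 ± 0.58). Squalene synthase Fdft1 had 2935 and 4564 at 4% O2, against 976 and 2797 at 20% O2 (log2 ratio 1.14 ± 0.28). The lowest were Fdps at -0.01 and Hsd17b7 at -1.25, and no more than 8.33% of Hsd17b7 was under islands in any library. Fdft1 was picked after its values were seen. Per kb of island the list had a median of 0.17.

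**Figure D5:**
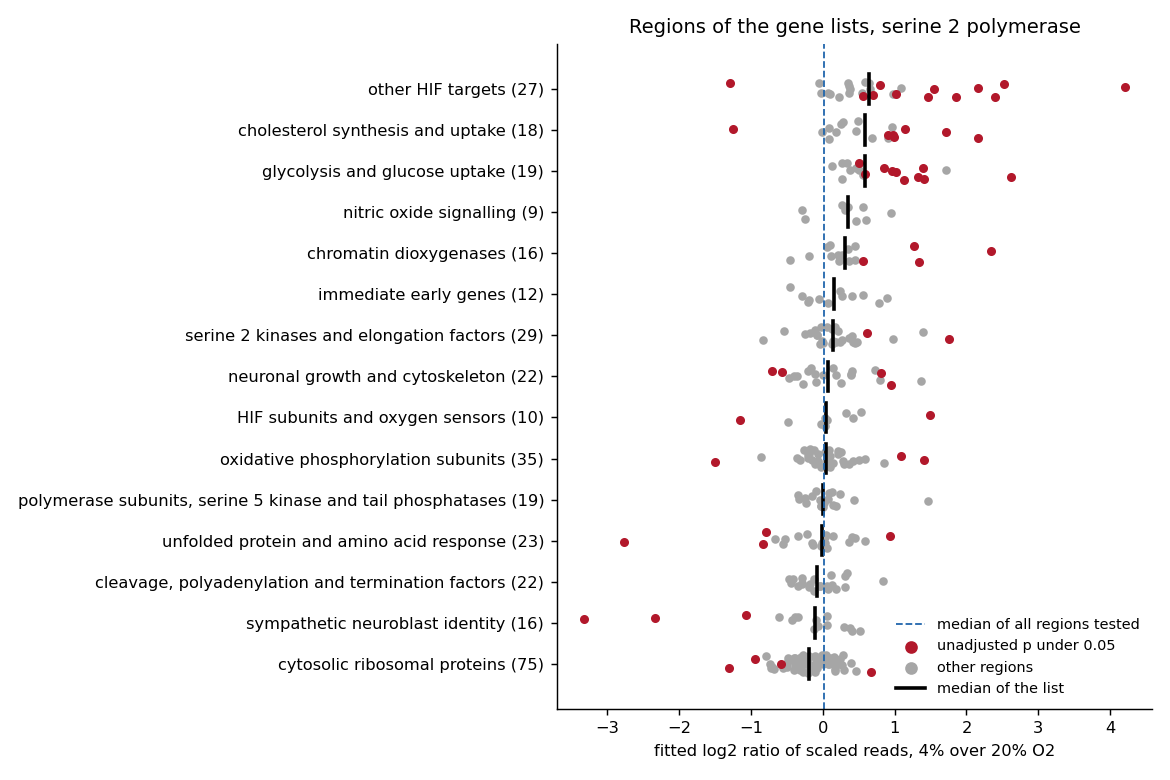
Fitted log2 ratio of scaled serine 2 reads (horizontal axis, 4% over 20% O2) of the regions of 15 gene lists, with the number of regions in parentheses, the median as a black bar and regions with an unadjusted edgeR p under 0.05 in red. Medians ran from 0.64 for other HIF targets to -0.19 for cytosolic ribosomal proteins, and the dashed line marks 0.02, the median of all regions tested.

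Median ratios of the machinery that writes and reads serine 2 phosphorylation were smaller than those of the lists above. Kinases of serine 2 and elongation factors had a median log2 ratio of 0.14 over 29 regions, against 0.02 for all regions tested. It was 0.71 over the 6 regions that hold no more than 1 gene, 3 of them higher and 1 lower in both rounds. Of the 29, 13 (44.8%) were higher and 4 (13.8%) lower in both rounds, against 32.4% and 32.1% of all regions tested. Cdk13, one of the serine 2 kinases, had the highest ratio, with 422 and 290 scaled reads at 4% O2, against 132 and 81.6 at 20% O2 (log2 ratio 1.75 ± 0.52). Its relative Cdk12 had 2280 and 876 at 4% O2, against 2306 and 1815 at 20% O2 (log2 ratio -0.53 ± 0.32), so the groups overlapped. Nelfa, a subunit of the pausing factor NELF, had a log2 ratio of 1.39 ± 0.75 from round 1 alone, with 403 and 651 at 4% O2, against 56.4 and 623 at 20% O2. Mllt1, of the super elongation complex, had the lowest at -0.83 ± 0.50.

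Polymerase subunits, the serine 5 kinase and the tail phosphatases had a median of -0.0039 over 19 regions, -0.21 in round 1 and 0.16 in round 2. In both rounds 4 were higher and 4 lower (21.1% each). Polr2a, which carries the repeats the antibody binds, had 1829 and 1371 scaled reads at 4% O2, against 2269 and 1573 at 20% O2 (log2 ratio -0.25 ± 0.26), with overlap between levels. Rpap2, a serine 5 phosphatase, had 798 and 526 at 4% O2, against 50.8 and 928 at 20% O2 (log2 ratio 1.47 ± 1.19), so the rounds went opposite ways. Cleavage, polyadenylation and termination factors had a median of -0.08 over 22 regions, 3 higher and 7 lower in both rounds (13.6% and 31.8%). The lowest were the region of Nudt21, a subunit of cleavage factor I, at -0.47 ± 0.21 and that of Pcf11, a termination factor that binds the serine 2 phosphorylated tail, at -0.44 ± 0.25. None of these regions passed the test over all regions.

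Among HIF subunits and oxygen sensors the median was 0.05 over 10 regions. Arnt, the constant HIF partner, had 1883 and 2133 scaled reads at 4% O2, against 418 and 1194 at 20% O2 (log2 ratio 1.498 ± 0.40). Hif1a had 2476 and 2199 at 4% O2, against 1321 and 1964 at 20% O2 (log2 ratio 0.53 ± 0.28). Crebbp, a HIF coactivator, had a log2 ratio of -1.16 ± 0.44. The chromatin dioxygenases, enzymes that need oxygen to remove histone or DNA methylation, had a median of 0.31 over 16 regions. In both rounds 8 were higher (50%) and 2 lower (12.5%), against 32.4% and 32.1% of all regions tested. Tet2, which oxidises methylcytosine, had 1060 and 1514 at 4% O2, against 94.1 and 634 at 20% O2 (log2 ratio 2.34 ± 0.61), and Kdm2a, a histone demethylase, 2107 and 2111 at 4% O2, against 771 and 892 at 20% O2 (log2 ratio 1.35 ± 0.30).

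Genes of sympathetic neuroblast identity were lower in both rounds more often than all regions. The median log2 ratio of this list was -0.11 over 16 regions, against 0.02 for all regions tested. With 1 library left out the median lay between -0.31 (without 4% O2 replicate 1) and 0.02 (without 4% O2 replicate 2). In both rounds 3 of its regions were higher and 7 lower, or 18.8% and 43.8%, against 32.4% and 32.1% of all regions tested. Of the 16, 8 hold no more than 1 gene, 1 of them higher and 5 lower in both rounds. Their median was -0.52, against 0.03 for all regions with 1 gene. At an unadjusted edgeR p under 0.05, 3 of the 16 were lower and 0 higher, against 7.33% and 8.12% of all regions tested. The neuroblast markers, which overlap this list, had a median of -0.03 over 10 regions, -0.07 in round 1 and 0.15 in round 2. In both rounds 3 were higher and 3 lower. Alk, the receptor kinase mutated in some neuroblastomas, had 147 and 44.8 scaled reads at 4% O2, against 1006 and 664 at 20% O2 (log2 ratio -3.33 ± 0.56), and no more than 27.6% of the gene was under islands in any library. Lmo4, a LIM-domain cofactor, had 72.5 and 35.95 at 4% O2, against 182 and 361 at 20% O2 (log2 ratio -2.33 ± 0.66). Hand2 had 6837 and 2400 at 4% O2, against 12363 and 5880 at 20% O2 (log2 ratio -1.07 ± 0.22), lower in each round although the groups overlapped. Th had 2017 and 2584 at 4% O2, against 1648 and 1878 at 20% O2 (log2 ratio 0.38 ± 0.25). The region of Nos1 had 1200 and 1593 at 4% O2, against 1140 and 2358 at 20% O2 (log2 ratio -0.25 ± 0.31), and the other nitric oxide genes gave the list a median of 0.35 over 9 regions, 4 higher and 0 lower in both rounds.

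Neuronal growth and cytoskeleton genes split, with 9 higher and 8 lower in both rounds among 22 regions and a median of 0.07. Map1b, a microtubule-associated protein, had 12956 and 7013 scaled reads at 4% O2, against 21861 and 11059 at 20% O2 (log2 ratio -0.71 ± 0.20). Snap25, of the synaptic release machinery and picked after its values were seen, had 3164 and 4754 at 4% O2, against 1341 and 3622 at 20% O2 (log2 ratio 0.81 ± 0.27). The region of Tubb3, neuronal beta tubulin, had a log2 ratio of -0.57 ± 0.20, that of Ncam1, a cell adhesion molecule, 0.95 ± 0.33, and that of Map2, a dendritic microtubule protein, 1.37 ± 0.61.

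Cytosolic ribosomal proteins, short genes transcribed at high rates, had a median of -0.19 over 75 regions. The rounds differed, at -0.41 in round 1 and 0.06 in round 2. In both rounds 11 were higher and 30 lower (14.7% and 40%), against 32.4% and 32.1% of all regions tested. Of the 75 regions, 12 hold no more than 1 gene, 0 of them higher and 8 lower in both rounds. Rps20 had 299 and 196 scaled reads at 4% O2, against 871 and 415 at 20% O2 (log2 ratio -1.31 ± 0.49), and Rps12 747 and 582 at 4% O2, against 1763 and 907 at 20% O2 (log2 ratio -0.94 ± 0.38). The unfolded protein and amino acid response had a median of -0.02 over 23 regions, 5 higher and 10 lower in both rounds (21.7% and 43.5%). Its lowest member was the region of Atf6, a membrane-bound stress sensor, with 191 and 1634 at 4% O2, against 2854 and 5273 at 20% O2 (log2 ratio -2.77 ± 0.50). Chac1, a glutathione-degrading stress gene, had a region at -0.83 ± 0.25, and Shmt2, mitochondrial serine hydroxymethyltransferase, one at 0.94 ± 0.22 shared with Lrp1 and Ndufa4l2.

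Immediate early genes had a median of 0.16 over 12 regions, 6 higher and 3 lower in both rounds. Klf6 had the highest ratio at 0.89 ± 0.66, from round 1, and Myc the lowest at -0.45 ± 0.31, with 1501 and 917 scaled reads at 4% O2, against 1759 and 1461 at 20% O2. Oxidative phosphorylation subunits had a median of 0.04 over 35 regions, -0.18 in round 1 and 0.14 in round 2. In both rounds 12 were higher and 10 lower (34.3% and 28.6%). Cox6b1, of cytochrome c oxidase, had 145 and 178 at 4% O2, against 56.4 and 64.7 at 20% O2 (log2 ratio 1.41 ± 0.50), and Ndufa10, of complex I, 595 and 99.6 at 4% O2, against 1172 and 410 at 20% O2 (log2 ratio -1.504 ± 0.50). No region of these lists passed the test over all regions, and no list was itself tested.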

How the data were processed

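Chromatin immunoprecipitation libraries of 24 samples were deposited as peak or island lists, and 6 inputs are not analysed here. The submitters' processing notes name BWA, Picard, SICER and the mm10 build, without role, version or setting, and the file headers name SICER for the polymerase lists. Each deposited SICER list of the authors gives positions and the count of reads in each island, as whole numbers not scaled to library size. H3K9ac lists from MACS2, per the file headers, were used for peak positions alone, and the values are deposited as −log10 (taken, from their range, to be of a q-value). The lists of replicate 2 were also deposited under replicate 1; the copies held equal values and were counted once.

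Chromosomes 1 to 19, X and Y were kept. Islands of the 4 libraries were merged where they overlapped by 1 bp. Reads of the 5936 regions with an island in all 4 were fitted with edgeR 4.0.16 (R 4.3.3, TMM, quasi-likelihood, round as block). The fit was tested on simulated counts with 200 regions changed. With the block it made 0 false calls at 2-fold changes and 7 at 4-fold changes. DESeq2 1.42.0 was an alternative. Deviations of round 1 libraries from their group means correlated with each other at 0.389 over the regions, and the rule of the comparison pairs the libraries by round. Scaled reads are reads over the effective scale of each library. The start-to-end balance, its alternatives and leaving out libraries for genes covered at one level were chosen after seeing the data. Ratios of other polymerase forms and within rounds used pseudocounts of 10 and 1 reads. Where neither library of a round held reads of a form, its ratio reflects the pseudocount and library totals alone. Genes are 21883 protein-coding genes of RefSeq GRCm38.p6, with strand from its promoter table where that gives 1 strand. Percent covered is the share of a gene's span under islands. Exact permutation tests were two-sided, and figures were drawn with Python 3.11.15.

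Names are drawn from the regions that passed, the 6 highest and 6 lowest with the same sign in both rounds, the 2 highest and 2 lowest regions of each list, the 5 genes a level covered at one level only, and the 4 largest differences of reach a direction, Polr2a, Nos1 and the cell type markers; other names are said to be picked later. Members, lists and tests were chosen with earlier results of these data known. Some genes of the lists are not reported here by name.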

Additional observations from a re-analysis of the deposited data

How the results depend on the processing

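The count of regions that passed depended on the fit. Against 5 higher and 6 lower with the replicate block, edgeR gave 0 and 0 with no replicate block. It also gave 0 and 0 with scaling to the summed island reads of the tested regions or to reads per kb of island. It gave these counts too with at least 500 reads on average, with regions called in at least 2 libraries and with gene bodies as features. It gave 1 and 1 with islands within 2 kb merged, 100 and 72 with DESeq2's size factors, and 132 and 92 with islands of at least 100 reads. DESeq2 with the block gave 155 and 100. Fits that left out 1 library had no block. Without the block edgeR recovered 0% of planted 2-fold or 4-fold changes on simulated counts of 4 libraries, so those fits cannot show whether calls depend on 1 library. The cause of the differences between settings was not tested.

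The glycolysis median was 0.27 per kb of island and 0.95 with regions called in at least 2 libraries, and 0.515 to 0.82 with 1 library left out (0.71 without 4% O2 replicate 1). The cholesterol median was 0.17 and 0.94 under the same settings, where the median of all regions was -0.34 and 0.29, and 0.20 to 0.78 with 1 library left out. For other HIF targets it was -0.0050 per kb of island, 0.85 over gene bodies and 0.52 to 0.82 with 1 library left out. Per kb of island the ratios of 1700025G04Rik (-0.23), Ralgps1 (-0.20), Cdh22 (-0.23), Ak4 (-0.63), Dtnbp1 (-0.24), Gng2 (-0.69) and Plat (-0.060) turned negative, where the median of all regions was -0.34.

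The difference in island count, 4% minus 20% O2, was -66.5, 1859.5 with islands of at least 100 reads, and -1448.5 to 1315.5 with 1 library left out (76 without 20% O2 replicate 1). That in covered length was 47.5 Mb and -4.99 to 100.1 Mb, the lowest without 20% O2 replicate 1. Genes covered at one level numbered 95 for 4% O2 with islands of at least 100 reads and 115 to 767 with 1 library left out, the most without 20% O2 replicate 2; those for 20% O2 numbered 13 (at least 25% against 0), 4 (at least 75% against at most 25%) and 21 to 47. With 1 library left out, the difference in start-to-end balance, 4% minus 20% O2, stayed at 12.7 to 25.1 percentage points. That in median reach stayed at -1.15 to -0.149 kb. The mean of within-round differences, the replicate block for single values, equals the pooled one.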

Other observations

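Ratios also varied with gene length when reads were counted over 9000 gene bodies. The median log2 ratio of serine 2 reads, 4% over 20% O2, was -0.18 for genes up to 5 kb, 0.10 for those of 20 to 40 kb, 0.17 for those of 40 to 80 kb and -0.16 for those over 160 kb. For genes up to 5 kb it was -0.43 in round 1 and 0.04 in round 2, so the rounds went opposite ways. For the 414 genes over 160 kb it was -0.11 and -0.29, with 27 higher (6.52%) and 60 lower (14.5%) at an unadjusted edgeR p under 0.05, against 6.06% higher and 3.51% lower among all 9000.

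Of 20907 merged regions, 1285 had an island in both 4% O2 libraries and neither 20% O2 library, and 291 the reverse. Their median lengths were 3.2 kb for 4% O2 and 8 kb for 20% O2, and 792 of the 1285 and 259 of the 291 held a protein-coding gene.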
